A study of Homo sapiens with 60 samples.

Results

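Keratins are the intermediate filament proteins of epithelial cells, and 8 of their genes were followed here through 60 libraries of A549, an established human lung adenocarcinoma cell line. The genes were KRT4, KRT7, KRT8, KRT80 and KRT81 (5 type II keratins) and KRT10, KRT18 and KRT19 (3 type I keratins). They were selected on earlier results of the same libraries, and KRT4 in particular was chosen because its level was low with wortmannin and Polygalae and high with Zizyphi. Those 3 patterns of KRT4 are therefore given as levels with no test, and counts of changed members cover the other 7 genes. The 8 are part of 54 keratin genes that were looked up in a table of 60675 genes. All 8 passed the filter on low counts, as did 13 of the 54, whereas 42 of the 54 stayed under 1 CPM (the counts-per-million level) in every library and 8 had no count at all.

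A keratin filament is built from pairs, each of an acidic type I and a basic type II keratin, and a keratin left without a partner is usually degraded. Simple epithelia such as those of lung and gut are known for KRT8 with KRT18, often joined by KRT7 and KRT19. KRT4 is a keratin of stratified mucosa such as that of the oesophagus, KRT10 marks the upper layers of the epidermis, KRT80 is found near desmosomes, and KRT81 is a keratin of the hair shaft that is also made by some carcinoma cells.

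Each of the 20 groups held 3 libraries, prepared 24 h after treatment. Vehicle received dimethyl sulfoxide, at 0.1% by the sample labels and 2% by the series design text, so its concentration is uncertain, and the labels of treated groups name no solvent level. Wortmannin, an inhibitor of phosphoinositide 3-kinases that served as the positive control, was given at 10 µM. The other 18 groups received a water extract of 1 of 6 medicinal plant parts, called here by the first word of its name: Polygalae Radix, Aucklandiae Radix, Zizyphi Semen, Longan Arillus, Liriopis seu Ophiopogonis Tuber and Schisandrae Fructus. Each extract was used at 500, 100 and 20 µg/mL by the labels, and a number after an extract's name is this dose. The design text mentions lower doses for toxic extracts, and the labels' doses were used. Library names fall into 5 sets: Vehicle alone, wortmannin alone, Liriopis with Schisandrae, Longan with Zizyphi, and Polygalae with Aucklandiae. In any comparison with Vehicle the set and the treatment cannot be told apart, whereas dose courses and comparisons of 2 extracts of 1 set stay within it. Whether the 3 libraries of a group stem from separate cultures is not stated, and p-values then cover the spread between these libraries only, which may be technical. In bulk RNA, fewer cells that make a keratin and less keratin RNA per cell cannot be told apart.

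Libraries held 17.7 M to 30.6 M counts (median 24.6 M), and the 3 Polygalae 20 libraries correlated least with their own group (mean r of 0.9851 to 0.9873). The line kept the epithelial markers CDH1 (25.8 to 37.6 CPM) and EPCAM (3.66 to 6.58 CPM). Of 5 alveolar type II markers, NAPSA alone reached 1 CPM in any library, and SFTPA1, SFTPB, SFTPC and NKX2-1 stayed at or near 0. The airway marker TP63 lay between 6.32 and 14.4 CPM. Of the markers of other tissues, COL1A1 (18.7 to 33.8 CPM) and COL3A1 (3.54 to 7.16 CPM) were present, while the summed level of 3 endothelial markers reached 0.413 CPM and that of 3 blood markers 0.114 CPM.

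The most abundant member, KRT81, has near copies, and this bears on how its counts were divided. Of its 100-base transcript windows, 29.4% also occur in KRT86, and its coding sequence is 94.2% identical to that of KRT86 and 93.3% identical to that of KRT83. By GENCODE release 29 on GRCh38, KRT81 lies at chr12:52285913-52291534 on the minus strand, within the span of KRT86 at chr12:52249300-52309163 on the plus strand, and KRT83 at chr12:52314301-52321398 on the minus strand. The same 120 coding bases of the 3 genes (ending at coding base 720 of KRT81 and KRT86 and 735 of KRT83) are shown because a read from this stretch can tell the genes apart only at the few bases in capitals, which mark differences from KRT81.
KRT81: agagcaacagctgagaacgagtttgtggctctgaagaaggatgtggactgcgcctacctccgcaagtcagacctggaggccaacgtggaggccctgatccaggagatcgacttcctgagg
KRT86: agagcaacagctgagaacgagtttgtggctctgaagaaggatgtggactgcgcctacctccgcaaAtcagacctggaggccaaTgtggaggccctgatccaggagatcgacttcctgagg
KRT83: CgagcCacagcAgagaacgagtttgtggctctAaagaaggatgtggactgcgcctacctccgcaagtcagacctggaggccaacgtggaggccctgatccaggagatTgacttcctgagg
KRT86 differed from KRT81 at 2 of these bases and KRT83 at 5. The counts that the authors' software assigned to KRT83, KRT86 and the pseudogene KRT87P together made up only 0.801 to 1.98% of the sum with KRT81. KRT8 shares 5.92% of its windows with other genes, mostly its pseudogenes, and the other 6 members share none. KRT8 (chr12:52897187-52949954, minus strand) and KRT18 (chr12:52948871-52952901, plus strand) overlap at their ends on opposite strands, and the strand setting of the counting is not given in the sources used here. The remaining type II members also lie on chromosome 12, with KRT7 at chr12:52232520-52252186, KRT80 at chr12:52168996-52192000 and KRT4 at chr12:52806549-52814551. KRT10 (chr17:40818117-40822595) and KRT19 (chr17:41523617-41528308) lie on chromosome 17.

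Per length of transcript, 4 keratins dominated. In Vehicle, KRT81 stood at 2390 ± 69.3 CPM per kilobase (SD, n = 3), KRT18 at 1790 ± 43.8, KRT8 at 1680 ± 70.8 and KRT7 at 1190 ± 46. The next keratins were far lower, with KRT80 at 30.2 ± 0.365, KRT19 at 19.5 ± 0.788, KRT4 at 16.5 ± 0.596, KRT10 at 14.1 ± 0.584 and KRT86 at 10.6 ± 0.729 CPM per kilobase. KRT4 and KRT19 thus belong to a scarce group whose levels lie under those of KRT80. Over all 60 libraries the 4 leading keratins held 98 to 98.4% of the counts of the 13 keratin genes that passed the filter. Those 13 genes took 1.09 to 1.54% of all counts. Per length, KRT18 alone supplied 97.2 to 98.2% of the type I sum, and KRT19 and KRT10 most of the rest.

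**Figure D1:**
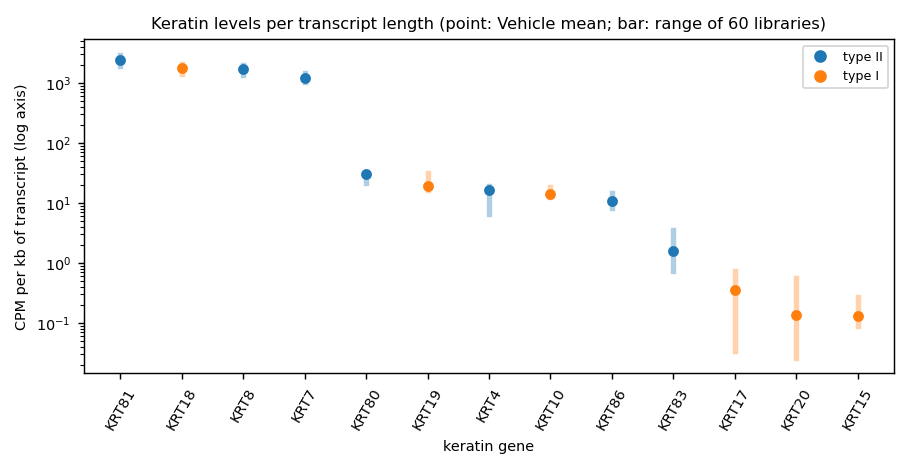
Levels of the 13 keratin genes that passed the filter, in CPM per kilobase of transcript on a log axis, with points for the mean of the 3 Vehicle libraries and bars for the range over all 60 libraries. KRT81, KRT18, KRT8 and KRT7 stand between 1190 and 2390 in Vehicle, and every other keratin is at 30.2 or lower.

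KRT4 had the widest range of the 8 members, from a group mean of 17.7 CPM with wortmannin to 48.2 CPM with Zizyphi 500, a ratio of 2.73. The 3 Vehicle libraries were at 42.4, 44.1 and 41 CPM and the 3 wortmannin libraries at 18.4, 16.7 and 17.9 CPM. With Polygalae 500 the libraries were at 26, 25 and 26.5 CPM, with Polygalae 100 at 33.4, 35.2 and 36.5 CPM, and with Polygalae 20 at 48.2, 45.4 and 48.3 CPM. Zizyphi 500 gave 46, 49.7 and 48.9 CPM. The wortmannin and the 2 higher Polygalae groups thus lay wholly below Vehicle, while Zizyphi 500 and Polygalae 20 lay wholly above it, as did Aucklandiae 100 (44.9 to 45.1 CPM). The fitted log2 differences from Vehicle were -1.26 ± 0.055 (SE) with wortmannin, -0.72 ± 0.054, -0.28 ± 0.051 and 0.15 ± 0.05 with Polygalae 500, 100 and 20, and 0.18 ± 0.049 with Zizyphi 500. Since KRT4 was chosen for these values, they are a description and were not tested. The lower Zizyphi doses were near Vehicle, at -0.03 ± 0.05 and -0.05 ± 0.05, so the higher level of KRT4 with this extract was seen at the top dose only. Polygalae was not uniform in direction either, with KRT4 above Vehicle at the lowest dose and below it at the 2 others.

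Ordered by mean, KRT4 was lowest with wortmannin, then Polygalae 500 (25.8 CPM) and Polygalae 100 (35 CPM), and these 3 groups overlapped neither each other nor any other group but 1 library of Longan 100 at 36.2 CPM. The next 15 means, from Liriopis 100 (40 ± 1.38 CPM) to Aucklandiae 100 (45 ± 0.154 CPM), lay close together, with neighbours that did not differ beyond their spread. At the top, Polygalae 20 (47.3 ± 1.66 CPM) and Zizyphi 500 (48.2 ± 1.91 CPM) overlapped each other. In the comparisons with Vehicle that the choice of KRT4 did not use, its log2 change was between -0.09 and 0.08 (edgeR's quasi-likelihood test, adjusted p of 0.45 to 0.97). Within the set of Polygalae and Aucklandiae the log2 difference of KRT4, as a description, was -0.72 ± 0.054 at 500, -0.36 ± 0.051 at 100 and 0.09 ± 0.05 at 20 µg/mL. Zizyphi minus Longan at 500 µg/mL was 0.16 ± 0.049.

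**Figure D2:**
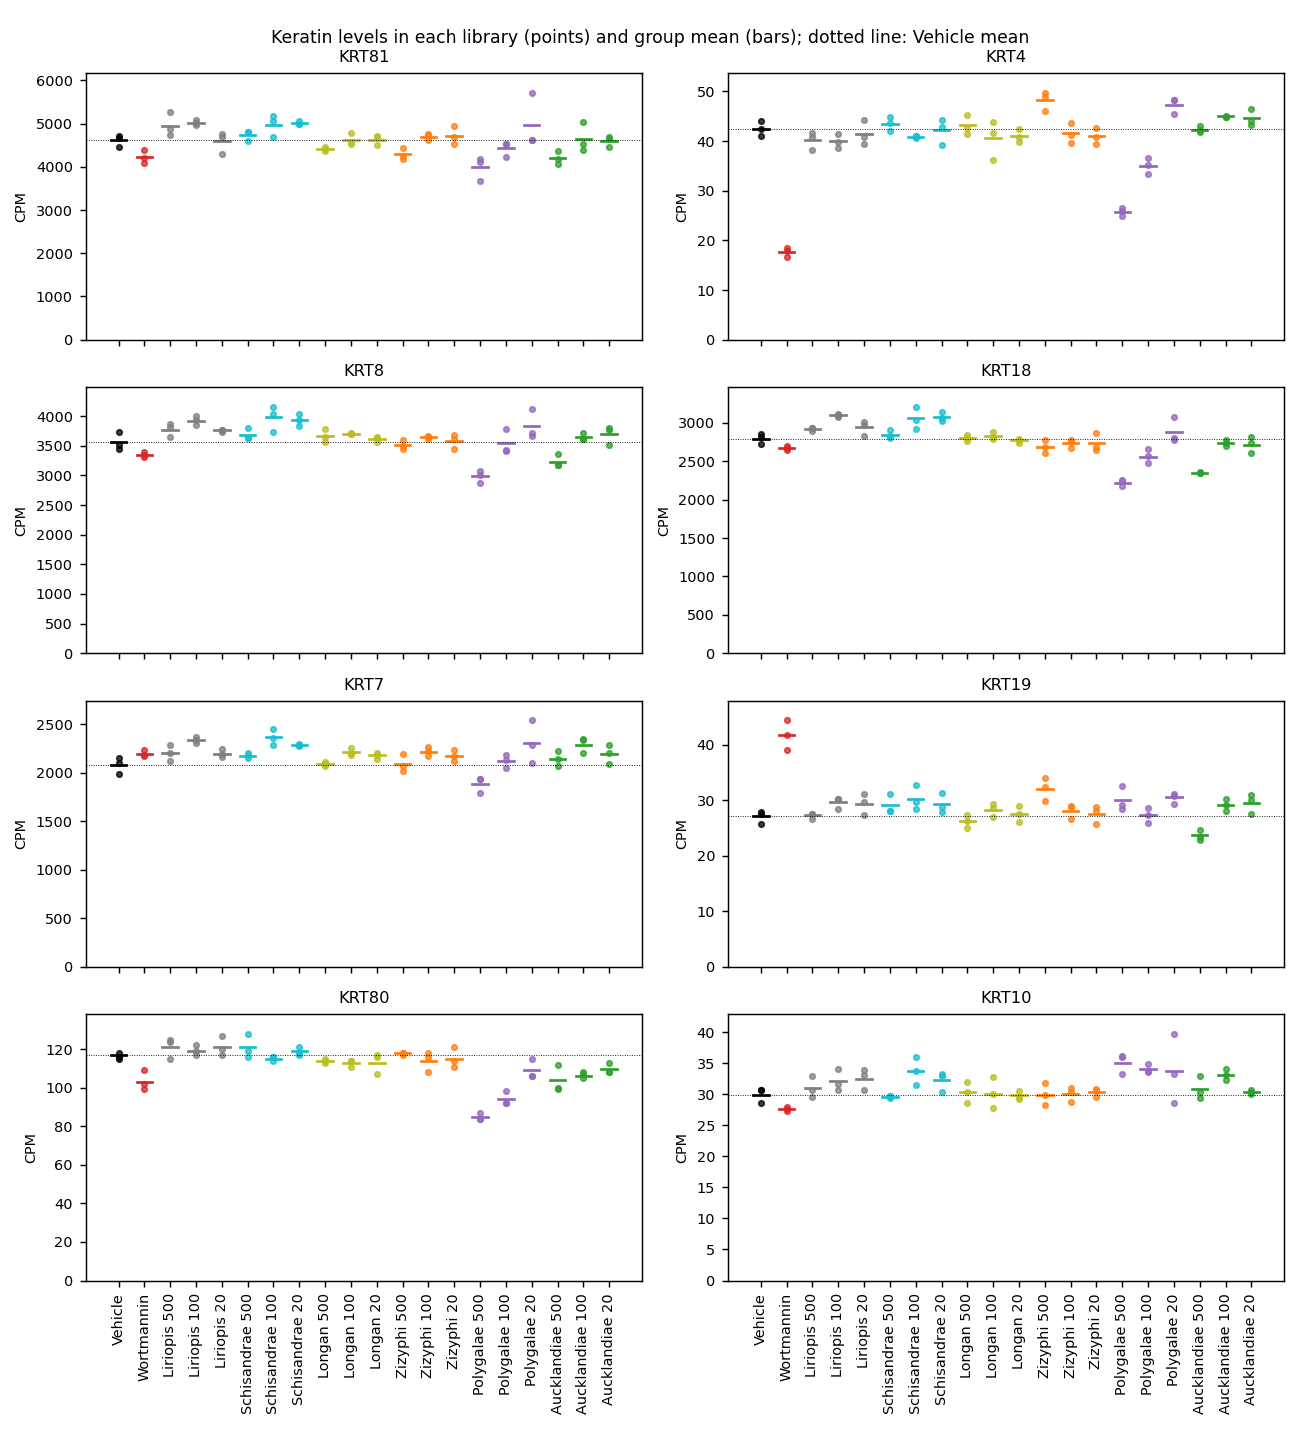
Level of each of the 8 keratins in every library (points, CPM, linear axes from 0) and mean of each group (bars), with a dotted line at the Vehicle mean. The KRT4 mean is 42.5 CPM in Vehicle and 17.7 CPM with wortmannin, while the KRT19 mean is 27.1 CPM in Vehicle and 41.7 CPM in the same wortmannin libraries.

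KRT8 and KRT18 are the filament pair of simple epithelia. KRT18 was at 2720, 2850 and 2810 CPM in Vehicle, at 2180, 2250 and 2240 CPM with Polygalae 500, and at 2340, 2340 and 2360 CPM with Aucklandiae 500. KRT8 was at 3520, 3740 and 3440 CPM in Vehicle, at 2870, 3080 and 3010 CPM with Polygalae 500, and at 3170, 3360 and 3170 CPM with Aucklandiae 500. For both genes, all libraries of these 2 extract groups lay below all Vehicle libraries. The wortmannin libraries did so too (3310 to 3390 CPM for KRT8 and 2640 to 2700 CPM for KRT18), as did Polygalae 100 for KRT18 (2470 to 2660 CPM). The share of all genes separated in this way was not computed. KRT18 fell by 0.33 ± 0.034 on the log2 scale with Polygalae 500 (edgeR adjusted p = 9.5e-12) and by 0.25 ± 0.034 with Aucklandiae 500 (edgeR adjusted p = 4.6e-07). KRT8 fell by 0.26 ± 0.039 with Polygalae 500 (edgeR adjusted p = 4.2e-07) and by 0.14 ± 0.039 with Aucklandiae 500 (edgeR adjusted p = 0.017). The last of these calls was lost without Vehicle replicate 2 or without Aucklandiae 500 replicate 1 or 3 (log2 change of -0.17 to -0.11 and edgeR adjusted p up to 0.18 over the omissions of 1 library).

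With Polygalae 100, KRT18 fell by 0.12 ± 0.034 (edgeR adjusted p = 0.008), a call lost without Vehicle replicate 2 or Polygalae 100 replicate 1 (adjusted p up to 0.097), whereas KRT8 was at -0.01 ± 0.039 (adjusted p = 0.91). With Schisandrae 100 both genes rose: the KRT8 libraries were at 4030, 3740 and 4160 CPM and the KRT18 libraries at 3040, 2920 and 3210 CPM. The rises were small, 0.16 ± 0.039 for KRT8 (edgeR adjusted p = 0.024) and 0.13 ± 0.034 for KRT18 (edgeR adjusted p = 0.035). Both depended on single libraries: the KRT18 call was lost in 5 of 6 omissions (all but Schisandrae 100 replicate 2) and the KRT8 call without Vehicle replicate 1 or 3 or Schisandrae 100 replicate 1 or 3, with adjusted p up to 0.43 and 0.34. In the 6 libraries of this comparison alone neither call was made (edgeR adjusted p = 0.06 and 0.084), and the KRT18 call was also lost with no filter on low counts (0.062). With wortmannin the pair gave -0.09 ± 0.039 for KRT8 (adjusted p = 0.054) and -0.06 ± 0.034 for KRT18 (adjusted p = 0.13).

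The 2 genes followed each other closely. Their group means had a Pearson r of 0.95 on the log2 scale over 20 groups, and the deviations of single libraries from their group means had an r of 0.73 over 60 libraries. Both values are descriptions over points that share library and depth. The ratio of KRT8 to KRT18 per length was 0.938 ± 0.034 in Vehicle, 0.987 ± 0.0209 with Polygalae 500 and 1.01 ± 0.0371 with Aucklandiae 500, within a range of 0.899 to 1.05 over all libraries. It was as high at lower doses, at 1.01 ± 0.0325 with Polygalae 100, 0.978 with Polygalae 20 and 1 with Aucklandiae 20, and these groups and Zizyphi 100 (0.965 to 0.992) also lay wholly above Vehicle (0.899 to 0.963).

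KRT7 is a type II keratin of simple and glandular epithelia. It was at 1990, 2100 and 2150 CPM in Vehicle and at 1790, 1930 and 1930 CPM with Polygalae 500, its lowest group. KRT7 fell by 0.14 ± 0.04 there (edgeR adjusted p = 0.006), a call lost without Vehicle replicate 3 or Polygalae 500 replicate 1 (adjusted p up to 0.091). KRT7 moved the other way at other doses and extracts: it rose by 0.19 ± 0.04 with Schisandrae 100 (edgeR adjusted p = 0.012), by 0.15 ± 0.04 with Polygalae 20 (0.01) and by 0.14 ± 0.04 with Aucklandiae 100 (0.048). Vehicle itself was low for this gene: of the 20 group means only Polygalae 500 (1880 CPM) lay below that of Vehicle (2080 CPM). Schisandrae 100 and 20, Aucklandiae 100, wortmannin, Liriopis 100 and 20, Longan 100 and Zizyphi 100 lay wholly above Vehicle. Polygalae 20 overlapped Vehicle. The Schisandrae call was lost without Vehicle replicate 1 or Schisandrae 100 replicate 3 (adjusted p up to 0.18). Without Polygalae 20 replicate 1, the library with the highest KRT7 level of all 60 (2540 CPM against 2280 and 2100 CPM in the other 2 of its group), the log2 change with Polygalae 20 was 0.07, and the call was lost there and without Vehicle replicate 1 (adjusted p up to 0.3), and also in the 6 libraries alone (0.46). The Aucklandiae 100 call was lost in 4 of 6 omissions (Vehicle and Aucklandiae 100, replicates 1 and 2 of each, adjusted p up to 0.26), and with RLE scaling (0.053) or the copies summed (0.051). KRT81 was at 4460, 4710 and 4660 CPM in Vehicle and at 3670, 4180 and 4120 CPM with Polygalae 500. It fell by 0.21 ± 0.054 (edgeR adjusted p = 0.0034), a call lost without Polygalae 500 replicate 1, the lowest of the 60 libraries (log2 change -0.15, adjusted p = 0.064). With KRT83, KRT86 and KRT87P added to KRT81, this call was still made.

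KRT80, a type II keratin known from desmosomes, was lower with wortmannin and along the Polygalae dose course. Its libraries were at 118, 115 and 116 CPM in Vehicle, at 83.8, 83.6 and 86.7 CPM with Polygalae 500, at 92.1, 92.2 and 98.2 CPM with Polygalae 100, and at 106, 106 and 115 CPM with Polygalae 20. All 9 libraries of Polygalae and all 9 of Aucklandiae (99.4 to 113 CPM) lay below every Vehicle library, Polygalae 20 replicate 3 only narrowly. This was not particular to that set, since wortmannin, Longan 500 (113 to 115 CPM) and Longan 100 (111 to 114 CPM) did so too. The share of all genes with such a separation was not computed. KRT80 fell by 0.46 ± 0.043 with Polygalae 500 (edgeR adjusted p = 3e-13) and by 0.31 ± 0.042 with Polygalae 100 (8.4e-08). With wortmannin, where the libraries were at 99.3, 109 and 102 CPM, it fell by 0.18 ± 0.041 (edgeR adjusted p = 0.00046). These 3 calls were made whichever single library was left out. With Aucklandiae 500 KRT80 fell by 0.17 ± 0.041 (edgeR adjusted p = 0.009), and this call was lost without replicate 1 or 3 of that group (adjusted p up to 0.1). With Polygalae 20 it gave -0.1 ± 0.042 (edgeR adjusted p = 0.12).

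KRT19, a small type I keratin that lacks most of the tail domain, was the member that rose with wortmannin. Its libraries were at 25.8, 27.6 and 27.8 CPM in Vehicle and at 44.4, 41.7 and 39 CPM with wortmannin, a group above all others. The rise was 0.62 ± 0.057 on the log2 scale, or 54.1% (edgeR adjusted p = 7.5e-14), and 0.58 to 0.67 whichever library was left out. The same libraries held the lowest KRT4 levels. With Zizyphi 500 KRT19 was at 29.8, 32.4 and 34 CPM and rose by 0.24 ± 0.059 (edgeR adjusted p = 0.015), a call lost without Vehicle replicate 1 or Zizyphi 500 replicate 2 or 3 (adjusted p up to 0.16). Aucklandiae 500 was its lowest group, at 23.4, 24.7 and 22.9 CPM, and its change of -0.19 ± 0.061 missed the threshold (edgeR adjusted p = 0.054). With Polygalae 500 the value was 0.15 ± 0.061 (adjusted p = 0.077).

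KRT10, a type I keratin of the upper epidermis, was the called member that rose with Polygalae 500. It was at 28.5, 30.7 and 30.6 CPM in Vehicle, at 35.9, 33.2 and 36.1 CPM with Polygalae 500, and at 34.9, 33.5 and 33.8 CPM with Polygalae 100. It rose by 0.22 ± 0.065 with Polygalae 500 (edgeR adjusted p = 0.0081), a call lost without Vehicle replicate 1 (adjusted p = 0.056). It rose by 0.19 ± 0.064 with Polygalae 100 (edgeR adjusted p = 0.041), a call lost when any 1 of the 6 libraries was left out (0.066 to 0.19). The Polygalae 20 libraries were spread from 28.6 to 39.7 CPM. With wortmannin KRT10 gave -0.12 ± 0.064 (adjusted p = 0.14).

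**Figure D3:**
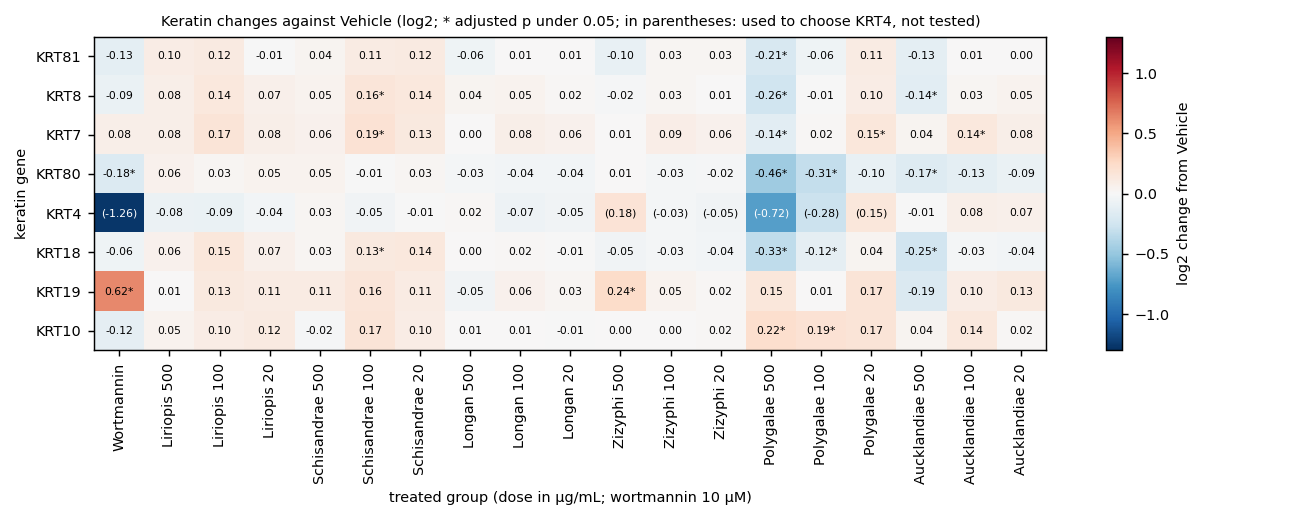
Log2 change of the 8 keratins in each of the 19 treated groups against Vehicle, with blue for lower and red for higher. Stars mark an edgeR adjusted p under 0.05, and values in parentheses are those of KRT4 that were used to choose it and were not tested. Polygalae 500 holds 6 stars, Polygalae 100, Aucklandiae 500 and Schisandrae 100 hold 3 each, and the Liriopis and Longan columns hold none.

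Against Vehicle, then, the count of changed genes among the other 7 members was 2 with wortmannin (KRT19 rose and KRT80 fell), where 37.4% of the 17368 genes tested passed an adjusted p of 0.05. It was 6 with Polygalae 500 (KRT7, KRT8, KRT18, KRT80 and KRT81 fell, KRT10 rose; 19.9% of all genes), 3 with Polygalae 100 (12.8%) and 1 with Polygalae 20 (12.1%). The Polygalae 500 count was 4 to 7 with 1 library left out and 6 to 7 in the other alternatives. It was 7 in the 6 libraries alone, where 4145 of 15799 genes were called. The wortmannin count was 4 by DESeq2 (5969 of 16694 genes called) and 4 without the Polygalae 20 libraries (6955 of 17319). When the 6 libraries were fitted alone, the wortmannin count was 7 (7569 of 16234 genes called). Without Vehicle replicate 2 or Polygalae 100 replicate 1, the Polygalae 100 count was 1. The Polygalae 20 count was the least stable: it was 0 without Vehicle replicate 1 or Polygalae 20 replicate 1, 2 without Vehicle replicate 2, 3 without Polygalae 20 replicate 2 and 6 without Polygalae 20 replicate 3. The choice of KRT4 used these contrasts, and nothing is read from their counts. It was likewise 1 with Zizyphi 500 (1.81%) and 0 with Zizyphi 100 and 20 (0.599% and 0.363%). Among contrasts the choice did not use, the count was 3 with Aucklandiae 500 (all fell, 4.93%), 1 with Aucklandiae 100 (2.04%) and 0 with Aucklandiae 20 (2.99%). The Aucklandiae 500 count was 1 without replicate 1 or 3 of that group. It was 5 in the 6 libraries alone (1840 of 15924 genes called) and 5 with no filter on low counts (1025 of 38019). The Aucklandiae 100 count was 0 in 4 of 6 omissions of 1 library and 2 by DESeq2. Schisandrae 100 had a count of 3 (all rose, 1.4%), and Schisandrae 500 and 20 had 0 (0.478% and 0.196%). The Schisandrae 100 count was 0 without Vehicle replicate 1 or Schisandrae 100 replicate 3, and 1 without Vehicle replicate 3 or Schisandrae 100 replicate 1. It was 1 in the 6 libraries alone and 4 without the Polygalae 20 libraries. No member was called with Liriopis at 500, 100 or 20 µg/mL (0.00576%, 0.00576% and 0.0864%) or with Longan (0.104%, 0.132% and 0.0173%). The median log2 change of the 7 members was -0.21 with Polygalae 500, -0.14 with Aucklandiae 500, -0.09 with wortmannin and 0.16 with Schisandrae 100, beside medians over all genes of 0.001, 0.002, 0.008 and 0.001.

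The counts of 0 come from edgeR's quasi-likelihood test and differ in how near they were to a call. With Liriopis 100, 5 members (KRT7, KRT8, KRT18, KRT19 and KRT81) had an unadjusted p under 0.05, all with higher levels, and DESeq2 called 3 of them (KRT7, KRT8 and KRT18). With Schisandrae 20, 4 members (KRT7, KRT8, KRT18 and KRT81) had one and DESeq2 called 2 (KRT8 and KRT18), while edgeR called 3 without the Polygalae 20 libraries and 4 in the 6 libraries alone. For Liriopis 100 edgeR called 2 members without the Polygalae 20 libraries and 1 with no filter on low counts. In the other groups with a count of 0 against Vehicle, between 0 and 2 members had an unadjusted p under 0.05 and DESeq2 called 0. The KRT18 level with Liriopis 100 was the highest of all groups, at 3110, 3080 and 3100 CPM, and its log2 change of 0.15 ± 0.034 had an edgeR adjusted p of 0.11.

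Dose courses need no Vehicle library. Per 5-fold step of Polygalae dose, KRT18 fell by 0.19 ± 0.029 (edgeR adjusted p = 0.0018), KRT8 by 0.18 ± 0.034 (0.0066), KRT80 by 0.18 ± 0.025 (0.00065), KRT81 by 0.16 ± 0.042 (0.04) and KRT7 by 0.15 ± 0.034 (0.024). These are 5 of the 7 members, where 5.03% of all genes passed, and this contrast too was used to choose KRT4, whose own slope was -0.44 ± 0.027. KRT10 (0.03 ± 0.046) and KRT19 (-0.01 ± 0.039) had no called slope. The KRT7 slope call was lost without any of the 3 Polygalae 500 libraries or Polygalae 20 replicate 2 (adjusted p up to 0.12). The KRT81 call was lost without any Polygalae 500 or 100 library (up to 0.17). It was also lost without the Polygalae 20 group (0.17), whose libraries correlated least with their own group. That fit held only the doses of 100 and 500 µg/mL. Without Polygalae 500 replicate 1, 2 or 3, 3 members were called. The slopes of KRT18, KRT8 and KRT80 were called in each of the 9 omissions.

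Aucklandiae, which the choice did not use, had 3 called slopes of 7 (0.967% of all genes): KRT19 fell by 0.16 ± 0.031 per step (edgeR adjusted p = 0.0068), KRT18 by 0.11 ± 0.023 (0.021) and KRT8 by 0.1 ± 0.02 (0.012). KRT19 was at 30.1, 30.9 and 27.6 CPM at 20 µg/mL and at 30.2, 28.1 and 29.1 CPM at 100 µg/mL. At 500 µg/mL it was at 23.4, 24.7 and 22.9 CPM, so the drop lay between the 2 higher doses. The drops of KRT18 (means of 2710, 2740 and 2350 CPM at 20, 100 and 500 µg/mL) and KRT8 (3700, 3650 and 3230 CPM) lay mainly there too. Without Aucklandiae 500 replicate 1 none of the 3 was called, and without Aucklandiae 500 replicate 3 or Aucklandiae 20 replicate 3 only KRT19 was. The KRT18 slope was lost in 5 of 9 omissions (replicates 1, 2 and 3 of Aucklandiae 500 and 2 and 3 of Aucklandiae 20, adjusted p up to 0.15). For the remaining extracts, 0 of 7 slopes were called with Liriopis (0.0461% of all genes), Schisandrae (0.0403%), Longan (0.0345%) and Zizyphi (0.351%). In these 4, 1 or 2 members had an unadjusted p under 0.05, and DESeq2 called only KRT81 with Zizyphi, which edgeR gave as -0.07 ± 0.017 (adjusted p = 0.1). KRT4's slope with Zizyphi, as a description, was 0.12 ± 0.025, and that of KRT19 was 0.11 ± 0.029 (edgeR adjusted p = 0.11). Without Zizyphi 20 replicate 1, 1 member had a called Zizyphi slope, and with no filter on low counts 2 had one.

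**Figure D4:**
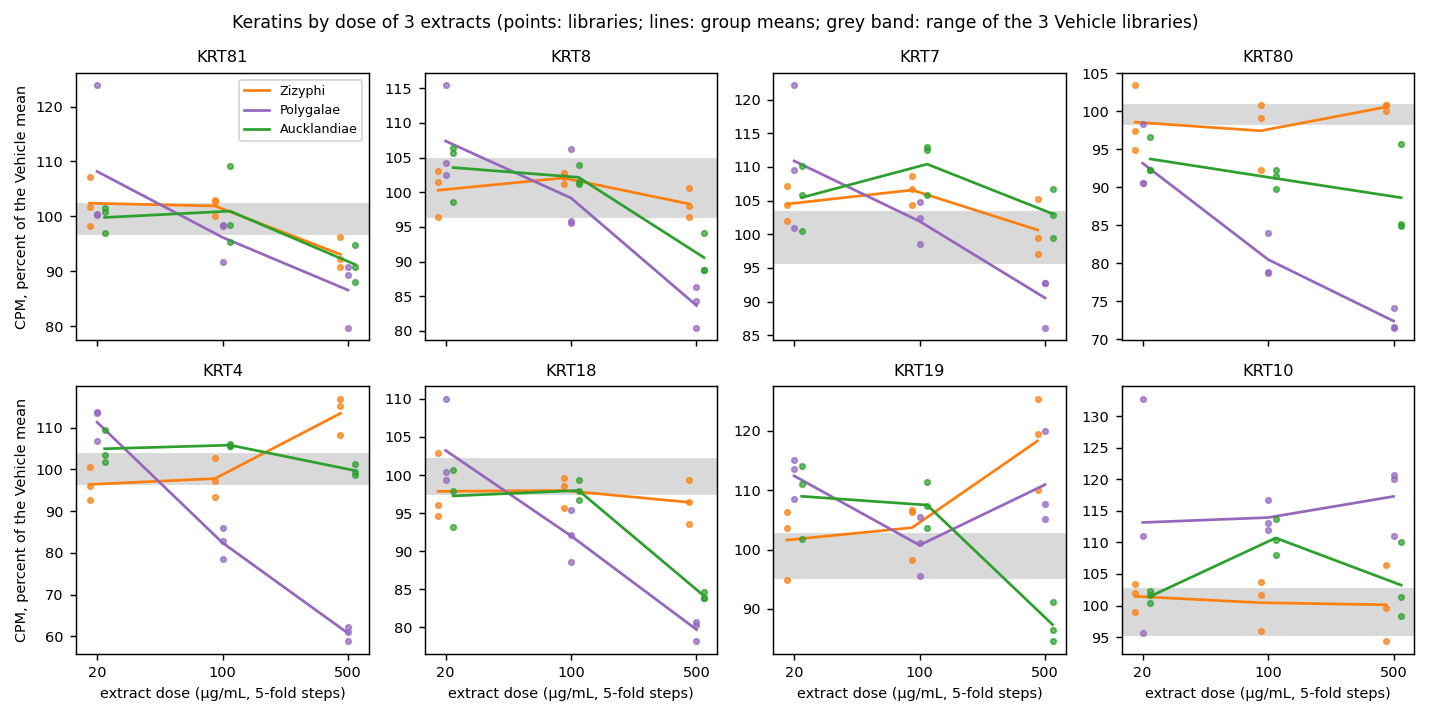
Level of each keratin, as a percent of its Vehicle mean, against the dose of Zizyphi, Polygalae and Aucklandiae in 5-fold steps (points for libraries, lines for group means, grey band for the range of the 3 Vehicle libraries; axes do not start at 0). KRT18 is lower at 500 than at 100 µg/mL with both Polygalae and Aucklandiae, and KRT19 is lower at 500 than at 100 µg/mL with Aucklandiae, where its slope was -0.16 per step.

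Within the library set they share, Polygalae and Aucklandiae differed most at the top dose. At 500 µg/mL 5 of the 7 members differed (15.2% of all genes): KRT80 by -0.3 ± 0.043 (edgeR adjusted p = 2.3e-07), KRT7 by -0.18 ± 0.04 (0.00048) and KRT8 by -0.11 ± 0.039 (0.033) were lower with Polygalae, while KRT19 by 0.34 ± 0.062 (2.7e-05) and KRT10 by 0.18 ± 0.065 (0.049) were higher. KRT18 did not pass, at -0.08 ± 0.034 (edgeR adjusted p = 0.12), and neither did KRT81, at -0.08 ± 0.054 (0.41). The KRT80, KRT7 and KRT19 calls were made in each omission of 1 library. Without Polygalae 500 replicate 1 or 3, or without Aucklandiae 500 replicate 2, only 3 members were called. KRT8 was lost in these 3 omissions (adjusted p up to 0.22), KRT10 in the same 3 and without Aucklandiae 500 replicate 3 (up to 0.19), and KRT10 with DESeq2 (0.058). At 100 µg/mL KRT80 alone differed, by -0.17 ± 0.042 (edgeR adjusted p = 0.0034; 7.43% of all genes), and 2 members were called without replicate 3 of either group. At 20 µg/mL none differed (3.89%; 3 members with an unadjusted p under 0.05, and 0 by DESeq2), but 1 was called without Polygalae 20 replicate 2 and 4 without Polygalae 20 replicate 3.

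Zizyphi and Longan at 500 µg/mL differed in KRT19 (0.213% of all genes), which stood at 29.8 to 34 CPM with Zizyphi and 25 to 27.4 CPM with Longan. The difference of 0.29 ± 0.06 (edgeR adjusted p = 0.0083) was lost without Longan 500 replicate 1 or 2 or Zizyphi 500 replicate 2 or 3 (log2 of 0.25 to 0.34, adjusted p up to 0.17), although the 2 groups did not overlap. At 100 and 20 µg/mL no member differed between these extracts, and no gene at all was called (0% and 0%). There 576 and 578 genes had an unadjusted p under 0.05, none of them among the 7 members other than KRT4. DESeq2 called 0 and 1 genes. Schisandrae and Liriopis differed in 0 members at 500, 100 and 20 µg/mL (0.322%, 0% and 0.0115% of all genes). At 100 µg/mL 895 genes had an unadjusted p under 0.05 and DESeq2 called 3. Of the 7 members other than KRT4, only KRT81 at 20 µg/mL had an unadjusted p under 0.05 over the 3 doses. KRT4 was not part of that count, and stood at 42 to 44.9 CPM with Schisandrae 500 and 38.3 to 41.6 CPM with Liriopis 500.

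The balance of type II to type I keratin RNA was narrow. Per length, the summed type II level was 2.91 ± 0.02 times the type I level in Vehicle, 2.89 ± 0.0406 with wortmannin, 3.14 ± 0.121 with Polygalae 500 and 3.24 ± 0.123 with Aucklandiae 500, within 2.7 to 3.37 over all libraries. Without KRT81 and its near copies KRT83 and KRT86, the ratio was 1.6 ± 0.0206 in Vehicle, 1.72 ± 0.0421 with Polygalae 500 and 1.81 ± 0.0656 with Aucklandiae 500. Every library of both extracts at 500 µg/mL lay above the Vehicle libraries on either ratio, but this was not particular to the top dose or to these extracts. On the full ratio Polygalae 100 and 20, Aucklandiae 20, Zizyphi 100 and 20 and Longan 20 also lay wholly above Vehicle (2.9 to 2.94), with lowest libraries at 2.96 to 3.01. Without KRT81, KRT83 and KRT86 all 6 groups of Polygalae and Aucklandiae did, and so did Zizyphi 100, Longan 20, Schisandrae 100 and wortmannin. These ratios were not tested.

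The 5 other keratins that passed the filter were scarce. KRT17, a type I keratin of basal and stressed epithelia, was at 0.606, 0.571 and 0.44 CPM in Vehicle and at 0.381, 0.222 and 0.179 CPM with wortmannin, where it fell by 1.02 ± 0.4 on the log2 scale (edgeR adjusted p = 0.035). With Polygalae 500 it gave -0.96 ± 0.41 (adjusted p = 0.099). KRT86 (20.9 to 23.9 CPM in Vehicle and 20.7 to 24.3 CPM with wortmannin), KRT83, KRT15 and KRT20 were called in none of the 34 comparisons by edgeR. KRT10-AS1, an antisense gene of KRT10, rose by 0.37 ± 0.11 with Polygalae 20 (edgeR adjusted p = 0.016). KRT7-AS, an antisense gene of KRT7, fell by 0.29 ± 0.066 with Polygalae 500 (edgeR adjusted p = 0.00081), and without the strand setting reads of these antisense genes and of their partners cannot be told apart with certainty.

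Genes whose 20 group means followed a member most closely were listed as a description. KRT4 was followed by PHGDH (Pearson r of 0.955), CBS (0.949) and CARS1 (0.948), but over the 16 groups without wortmannin and Polygalae these r were 0.189, 0.398 and 0.0356, so the likeness rests on those groups. KRT18 was followed by KRT8 (0.953), LDHA (0.935) and HEXIM1 (0.917), and these r were 0.963, 0.94 and 0.87 over the 16 groups. KRT81 was followed by KRT8 (0.921), LDHA (0.894) and RPL8 (0.877). Among the members, KRT4 and KRT19 had an r of -0.65 over the group means, against 0.27 for the deviations of single libraries. The first r includes wortmannin, with the lowest KRT4 mean (17.7 CPM, used in the choice of KRT4) and the highest KRT19 mean (41.7 CPM). No r was computed without it. Both genes had means above Vehicle (42.5 and 27.1 CPM) with Zizyphi 500 (48.2 and 32.1 CPM) and Polygalae 20 (47.3 and 30.5 CPM).

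Desmosomes anchor keratin filaments at cell contacts. Of 14 tested genes of desmosomes and keratin linkers, 2 rose and 5 fell with Polygalae 500 (median log2 change -0.22), where 19.9% of all genes were called. Periplakin, PPL, which links keratin to desmosomes, fell by 0.71 ± 0.14 (edgeR adjusted p = 5.4e-05) and the plaque protein PKP2 fell by 0.36 ± 0.11 (0.014), whereas the desmosomal membrane protein PERP rose by 0.46 ± 0.042 (2.3e-13). With wortmannin 3 rose and 2 fell, a share close to the 37.4% of all genes called, with PERP at 0.65 ± 0.041 (edgeR adjusted p = 5.2e-20), PPL at 0.34 ± 0.12 (0.016) and PKP4 at -0.28 ± 0.04 (8.2e-08). PERP thus rose in both, and PPL had opposite signs. With Aucklandiae 500 and Zizyphi 500 none of the 14 was called, where only 4.93% and 1.81% of all genes were.

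Of 8 genes for proteins that bind keratins, 1 rose and 3 fell with wortmannin (37.4% of all genes called) and 1 rose with Polygalae 500 (19.9%). SFN, the 14-3-3 sigma protein, fell by 0.21 ± 0.049 with wortmannin (edgeR adjusted p = 0.00038) and rose by 0.18 ± 0.049 with Polygalae 500 (0.006). TCHP (trichoplein) and the kinase CSNK1A1 fell with wortmannin, by 0.21 ± 0.052 (edgeR adjusted p = 0.00078) and by 0.21 ± 0.037 (5.4e-06). Of 11 other intermediate filament genes, 4 fell and 0 rose with wortmannin, a share close to the 37.4% of all genes, among them the lamins LMNB2 (-0.37 ± 0.038), LMNA (-0.25 ± 0.038) and LMNB1 (-0.2 ± 0.033). With Polygalae 500 3 fell and 0 rose (19.9% of all genes called): INA (-0.24 ± 0.057), VIM (-0.21 ± 0.033) and LMNA (-0.11 ± 0.038), the first being the neuronal filament gene and VIM that of vimentin.

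Of 12 genes of simple epithelium, 5 rose and 0 fell with wortmannin (37.4% of all genes called), including SPINT1 (1.26 ± 0.36), ESRP2 (1.16 ± 0.44) and EPCAM (0.53 ± 0.12). With Polygalae 500 2 rose and 5 fell (19.9% of all genes called), and the median log2 change of the 12 was 0.06. The genes named here, those with the largest called change, all fell. They were the tight junction claudins CLDN7 (-1.03 ± 0.3, edgeR adjusted p = 0.0091), CLDN4 (-0.96 ± 0.18, 2.3e-05) and CLDN3 (-0.85 ± 0.19, 0.00072). Of 20 genes of squamous differentiation, the program in which KRT4 and KRT10 are usually found, 5 could be tested and none was called with wortmannin or Polygalae 500.

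Markers of other cell types moved as well, and their part in the keratin results was not tested. Their counts, too, stand beside 37.4% of all genes called with wortmannin and 19.9% with Polygalae 500. Of 4 tested airway genes, TP63 rose by 0.54 ± 0.097 with wortmannin and fell by 0.44 ± 0.11 with Polygalae 500, and TPPP3 fell in both (-0.61 ± 0.1 and -0.84 ± 0.11). Of 2 tested alveolar genes, ABCA3 rose by 1.02 ± 0.058 with wortmannin. Of 5 tested genes of fibroblasts, endothelium and blood, PDGFRA and CD68 rose with wortmannin (0.88 ± 0.32 and 0.53 ± 0.13), while with Polygalae 500 CD68 rose by 0.96 ± 0.13 and COL3A1 and COL1A1 fell by 0.43 ± 0.12 and 0.35 ± 0.065. The summed level of that list was 45.7 to 46.7 CPM in Vehicle, 50.5 to 53.8 CPM with wortmannin and 47.5 to 52.8 CPM with Polygalae 500. Both groups lay wholly above Vehicle, but this was not particular to them. Polygalae 100, Zizyphi 20 and Schisandrae at 500, 100 and 20 µg/mL did so too, with lowest libraries at 47.4 to 48.9 CPM. Of 4 tested replication-dependent histone genes, whose level can show RNA without a poly(A) tail, none was called with wortmannin or Polygalae 500, and their list summed to 3.86 to 4.58 CPM in Vehicle and 2.57 to 3.87 CPM with wortmannin.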

How the data were processed

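RNA of 60 A549 libraries was sequenced as 100-base paired-end reads from a strand-specific kit, per the labels' protocols. The authors deposited RSEM expected counts per gene on GRCh38. Tools listed per the submitters' processing notes, without their roles, are RSEM 1.3.3, STAR 2.7.3a, Trim Galore 0.6.5 and FastQC 0.11.9. For the annotation release and the strand setting, the sources used here give nothing. Expected counts were rounded (10.7% of values were not whole), scaled by TMM and filtered, which left 17368 of 60675 genes. A robust quasi-likelihood fit in edgeR 4.0.16 (R 4.3.3) over 20 groups gave 28 group differences, and 6 dose slopes used 9 libraries each. Errors are SE for log2 changes and SD for levels, and p-values were adjusted over all genes (Benjamini-Hochberg) with a threshold of 0.05. Libraries held 17.7 M to 30.6 M counts. No 2 replicates agreed within sampling noise (chi-square per degree of freedom of 2.03 or more). The members and the gene lists were chosen with earlier results of these data known. Named genes of each list are up to 3 called genes with the largest change, and those listed as most like a member have the highest correlation of group means. Alternatives were RLE scaling, no filter, DESeq2 1.42.0, a replicate block, the libraries alone and each library left out. The fits were tested on simulated data.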

Additional observations from a re-analysis of the deposited data

How the results depend on the processing

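Of 35 called keratin changes, none changed direction: 234 values with 1 library left out gave 167 calls and 67 lost calls, and 237 values from other alternatives gave 225 and 12. Counts of the other 7 members moved more. The wortmannin count of 2 became 4 with DESeq2, 4 without the Polygalae 20 libraries and 7 with the libraries alone. The Aucklandiae 500 count of 3 became 5 with no filter and 5 alone, and the Zizyphi 500 count of 1 became 2 alone. Calls over all genes rose too in these 3 fits of the libraries alone. They were 7569 of 16234 with wortmannin, 1840 of 15924 with Aucklandiae 500 and 992 of 15874 with Zizyphi 500. In the main fit they were 6499, 857 and 315 of 17368. Leaving out 1 library gave 4 to 7 for Polygalae 500, 0 to 1 for Zizyphi 500 and 1 to 3 for Aucklandiae 500, each against Vehicle. It gave 3 to 5 for Polygalae minus Aucklandiae at 500 µg/mL, 3 to 5 for the Polygalae slope and 0 to 3 for the Aucklandiae slope. With a replicate block the Polygalae slope count of 5 became 3. The block also ended the calls of KRT18 in the Aucklandiae slope and KRT7 with Aucklandiae 100, and gave 2 called Zizyphi slopes and 1 member with Schisandrae 20, both 0 without it. Over all tested genes, same-numbered libraries did not deviate together (r of -0.08 to 0.09). A pairing that is weak or limited to some genes would not show in these r, so whether the numbers pair samples remains unknown. The cause of these shifts was not tested. Summing copies with KRT81, KRT8 and KRT18 and leaving out the Polygalae 20 libraries were chosen after seeing the data. With 3 libraries a group, a log2 change of -0.19 ± 0.061 (KRT19 with Aucklandiae 500, edgeR adjusted p = 0.054) missed the threshold.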
